A study of Mus musculus with 8 samples.

Results

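Cultures in which the signal from prostaglandin E2 (PGE2) through its receptor EP4 was blocked were compared with cultures in which it was open. All were mouse postnatal tail-tip fibroblasts (TTFs), primary connective tissue cells of the tail, that had been transduced with retroviruses for the cardiac transcription factors Gata4, Hand2, Mef2c and Tbx5 (GHMT). The study asked whether inhibiting cyclooxygenase-2, PGE2 or EP4 helps these factors to turn fibroblasts into cells resembling heart muscle. Of the 8 arrays in the series, 6 entered the comparison, chosen by their treatment labels. The blocked arm held 1 array of GHMT with diclofenac, a cyclooxygenase inhibitor, from TTF set 1, and 1 array of GHMT with an EP4 antagonist from each of TTF sets 1 and 2. The open arm held 1 array of GHMT alone from each set and 1 array of GHMT with diclofenac and added PGE2 from set 1. Each arm therefore had 3 arrays, 2 of set 1 and 1 of set 2.

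The compounds went on together with the viruses, and dimethyl sulfoxide (DMSO) was the vehicle among the additions that the growth protocol lists. The sources used here do not give doses, the time of harvest or the identity of the EP4 antagonist, nor what separates the TTF sets or whether the cultures were independent experiments. The p-values therefore measure the spread between these samples, which may be technical in part. No treatment was repeated within a set. That spread, and the standard errors drawn from it, thus mixes differences between treatments inside an arm with differences between sets. It holds no separate measure of replicate spread. Every culture carried the 4 viruses, so the comparison is between reprogramming cultures and not against untreated fibroblasts. The arms pool unlike treatments, and the number of arrays limits the precision. In RNA from a whole culture, fewer cells of a type and less RNA per cell cannot be told apart.

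Cyclooxygenases turn arachidonic acid into prostaglandin H2, from which prostaglandin E synthases make PGE2. EP4 couples to the stimulatory G protein, which raises cyclic AMP (cAMP) and activates protein kinase A and the transcription factor CREB. Phosphodiesterases break cAMP down again, and several of their genes are themselves induced by cAMP. PGE2 is also a mediator of inflammation that fibroblasts make and respond to.

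Values are the deposited log2 expression values, so 1 unit is a 2-fold difference. Differences are blocked minus open within a TTF set, and each is the mean of 3 pairs of arrays that share none: EP4 antagonist minus GHMT in set 1, diclofenac minus diclofenac plus PGE2 in set 1, and EP4 antagonist minus GHMT in set 2. Errors after ± are standard errors from limma with n = 3 arrays in each arm. Where a gene's arrays are listed, the open arm comes in the order GHMT of set 1, diclofenac plus PGE2 of set 1 and GHMT of set 2, and the blocked arm in the order diclofenac of set 1, EP4 antagonist of set 1 and EP4 antagonist of set 2. The background level of each array, taken as the 95th percentile over its background probe sets, lay between 5.73 and 5.99. In set 1 the share of transcript clusters (the array's gene-level units) above background was 43.8% in both blocked arrays and 45.3% to 45.7% in the open ones, and in set 2 it was 44.5% in the blocked and 44.1% in the open array. The part of this difference in the results was not tested.

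The cultures carried fibroblast markers and part of the cardiomyocyte markers, beside markers of some other cell types. Of 11 measured fibroblast markers, 10 or 11 lay above background in every array. Of 12 cardiomyocyte markers, 7 or 8 lay above background, with Nkx2-5, Myl2, Myh7 and Tnni3 at background throughout. Of 8 smooth muscle markers, 7 lay above background in every array. So did 4 or 5 of 14 cartilage and bone, 2 to 4 of 14 skeletal muscle and 2 or 3 of 11 adipocyte markers, depending on the array. None of 17 macrophage and leukocyte markers and none of 8 Schwann and neural cell markers was above background in any array. Among the transduced factors, Hand2 differed by -0.33, Mef2c by -0.07 and Tbx5 by -0.05, none past the threshold of the test. Gata4 read at background everywhere and compares nothing.

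With PGE2-EP4 signalling blocked, 84 of 22206 transcript clusters passed (0.378%; limma with the TTF set as a block, Benjamini-Hochberg adjusted p under 0.05). Higher in the blocked arm were 57 clusters (0.257%), and lower were 27 (0.122%). The falls were led by Pde4b, Mcpt8, Tgfbi, Emb and Fbln1. They took in several genes of the extracellular matrix and 1 gene each of cAMP breakdown (Pde4b), interleukin-1 reception (Il1r1) and Wnt potentiation (Rspo3). The rises were led by Rab3b, Myh6, Col10a1, Actc1 and Myl1. Beside the contractile proteins, they took in genes of calcium control, growth factor ligands, mitochondria and the actin skeleton, and Ramp1, part of a peptide receptor. Without the block 0 clusters passed in limma (smallest adjusted p = 0.0680, 469 clusters at an unadjusted p under 0.05, against 1925 with it). Leaving out 1 array gave 192 clusters without GHMT of set 1, 17 without diclofenac plus PGE2, 4 without the EP4 antagonist of set 1, 2 without diclofenac and 0 when set 2 lost either of its arrays. The sign of all 84 was the same in these fits. That outcome was fixed in advance, because the arms of all 84 did not overlap within either set. Losing either array of set 2 gives the same fit, on set 1 alone. After quantile normalization 80 passed, and Cacna1a, Dusp5, Igfbp7, Mecom, Podn, S1pr3, Smpx and Spon2 were the 8 that dropped out.

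**Figure D1:**
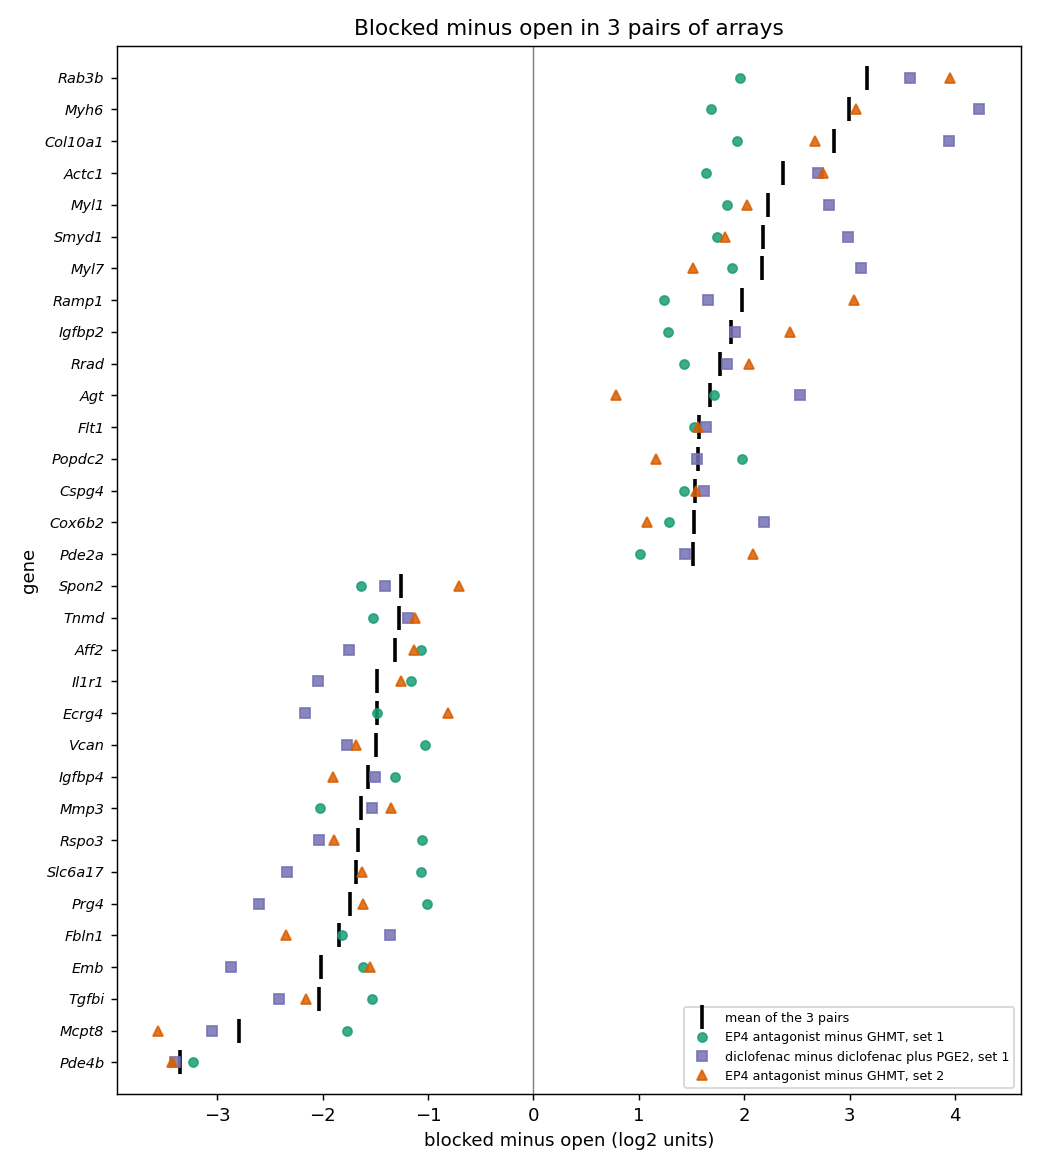
Blocked minus open in log2 units (x axis) for the 16 largest falls and the 16 largest rises among genes past the threshold (y axis). Symbols are the 3 pairs of arrays and the black bar is their mean. For Pde4b the pairs lie between -3.43 and -3.23, while those of Prg4 and Agt are spread more widely.

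The largest difference of all was in the machinery that removes cAMP. Pde4b encodes a cAMP-specific phosphodiesterase. Its cluster read 8.56, 9.52 and 9.33 in the open arm and 6.12, 5.33 and 5.90 in the blocked arm. All 3 blocked arrays were lower than every open array, 1 of them (EP4 antagonist, set 1) at background, and the open array with added PGE2 was the highest. Pde4b fell by 3.35 ± 0.27 (10.2-fold, adjusted p = 0.00622 in limma), and the 3 pairs differed by -3.23, -3.40 and -3.43. It was also 1 of 2 genes that still passed with the diclofenac array left out, the other being Col10a1.

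Pde2a, a phosphodiesterase stimulated by cyclic GMP that degrades both cyclic nucleotides, moved the other way. It read 6.21, 5.41 and 5.62 in the open arm and 6.85, 7.22 and 7.70 in the blocked arm. All blocked arrays were above background, but only 1 of the open arrays was, and Pde2a rose by 1.51 ± 0.25 (adjusted p = 0.0444 in limma). Of 17 measured phosphodiesterase genes, these 2 passed. The blocked arrays lay below the open arrays of their set in 6 of the 17 (35.3%, against 10.6% of all clusters) and above in 2 (11.8%, against 9.43%). The median difference was -0.29, against -0.01 over all clusters. Of clusters above background in at least 1 array, 13.1% lay below and 11.1% above without overlap. Pde7b (-1.39 ± 0.34), Pde10a (-1.27 ± 0.28) and Pde3b (-1.23 ± 0.24) were below in all pairs but missed the threshold.

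On the side of cAMP production and response, few genes passed. Of 28 genes for adenylyl cyclases, G protein subunits, protein kinase A and its anchors, 2 rose and 0 fell. Without overlap, 8 were higher (28.6%) and 2 lower (7.14%), against 9.43% and 10.6% of all clusters, and the median was 0.09. Akap6, which anchors protein kinase A in muscle cells, read 5.87, 5.27 and 6.43 in the open arm and 7.16, 6.77 and 8.05 in the blocked arm. The array with diclofenac plus PGE2 was the 1 at background, the arms did not overlap within a set, and Akap6 rose by 1.47 ± 0.20. Gnai1, an alpha subunit of the inhibitory G proteins that lower cAMP, rose by 0.90 ± 0.15. Adcy2, an adenylyl cyclase, stood at -0.80 ± 0.24 and did not pass.

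Among 26 CREB and immediate early genes the median was -0.08, and 3 lay above and 3 below without overlap. These 11.5% each were close to the 9.43% and 10.6% of all clusters. Dusp5, a nuclear phosphatase that switches off ERK kinases, was the 1 that passed: it rose by 1.17 ± 0.20 (adjusted p = 0.0498 in limma), and it no longer passed after quantile normalization of the arrays. The nuclear receptors Nr4a2 (-1.14 ± 0.26), Nr4a3 (-1.09 ± 0.37) and Nr4a1 (-0.67 ± 0.26), known to be induced by cAMP, had negative differences that missed the threshold. Egr1, an immediate early gene, stood at 0.81 ± 0.17.

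None of 21 genes of prostanoid synthesis and reception passed. Ptgs2, which encodes cyclooxygenase-2, read 9.72, 10.03 and 12.86 in the open arm and 9.47, 9.81 and 13.72 in the blocked arm, so it was higher in set 2 than in set 1 in both arms and differed by 0.13 ± 0.23 between the arms. Ptges, the inducible prostaglandin E synthase, differed by -0.73 ± 0.25, and Ptger4, the gene of EP4 itself, by -0.52 ± 0.24. Both were above background in all 6 arrays, and neither had overlapping arms within a set. Of the other PGE2 receptor genes, Ptger1 (0.39) and Ptger2 (-0.02) lay at background in every array, and Ptger3 (-0.05) was above it in 1 array of each arm.

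Promoters of the genes that passed were searched for the motifs of the factors involved, using RefSeq promoters of mouse build GRCm38.p6 that run from 250 bases before to 50 after the transcription start. Of 55 named genes that rose, 46 matched, with 60 promoters, and of 26 that fell, 22 matched, with 31 promoters. The CArG box, which serum response factor binds in muscle genes, was present in 4 of 60 promoters of risen genes (6.67%), in 0 of 31 of fallen genes and in 1.63% of all 32851 promoters. The complete cAMP response element TGACGTCA was in 1 promoter of each group, those of Flt1 and Nectin2 (1.67% and 3.23%, against 1.79% of all), and its short form TGACG, which the complete element contains, was in 16.7% and 22.6%, against 20.8%. A loose pattern for the MEF2 site, CTA and TAG with any 4 bases between them, was in 5% (Cd80, Mybpc3 and Smpx) and 0%, against 3.69%. Only the match of Mybpc3 (CTATATTTAG) has A or T alone at those 4 bases. The matches of Cd80 (CTAGTGTTAG) and Smpx (CTAAAGATAG) do not, so these shares are of the loose pattern. The GATA site AGATAA was in 11.7% and 0%, against 11.2%, and the T-box core AGGTGT in 13.3% and 22.6%, against 13.7%. E-boxes (CANNTG) were in 68.3% and 80.7%, against 72.3%, and the TATA box TATAAA in 16.7% and 6.45%, against 13.6%. Both strands were searched, and a match is a description of letters, not a binding site. Shown here are the 150 bases before the start of all 4 risen genes with a CArG box, of Flt1, the risen gene with the complete cAMP response element, and of 1 of the 4 promoters of Pde4b, which has the short form on its opposite strand. Capitals mark the motif, and Dusp5 carries a pair of CArG boxes side by side.
Actc1, chr2:114052876-114053025, reverse strand: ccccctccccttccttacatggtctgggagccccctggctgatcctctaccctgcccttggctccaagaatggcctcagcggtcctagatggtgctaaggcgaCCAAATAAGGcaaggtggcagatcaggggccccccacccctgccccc
Myl7, chr11:5898783-5898932, reverse strand: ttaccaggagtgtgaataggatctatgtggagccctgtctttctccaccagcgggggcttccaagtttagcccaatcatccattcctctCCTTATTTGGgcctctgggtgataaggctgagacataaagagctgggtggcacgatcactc
Myom1, chr17:71019407-71019556, forward strand: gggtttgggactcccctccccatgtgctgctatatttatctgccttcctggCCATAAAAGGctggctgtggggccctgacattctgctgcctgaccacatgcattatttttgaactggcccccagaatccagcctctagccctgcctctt
Dusp5, chr19:53528995-53529144, forward strand: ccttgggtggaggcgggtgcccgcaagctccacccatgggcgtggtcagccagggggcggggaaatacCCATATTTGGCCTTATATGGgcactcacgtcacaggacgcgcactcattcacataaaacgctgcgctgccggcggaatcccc
Flt1, chr5:147726012-147726161, reverse strand: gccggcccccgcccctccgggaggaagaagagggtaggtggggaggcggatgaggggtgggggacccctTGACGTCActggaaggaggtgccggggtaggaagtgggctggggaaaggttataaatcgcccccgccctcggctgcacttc
Pde4b, chr4:102421405-102421554, forward strand: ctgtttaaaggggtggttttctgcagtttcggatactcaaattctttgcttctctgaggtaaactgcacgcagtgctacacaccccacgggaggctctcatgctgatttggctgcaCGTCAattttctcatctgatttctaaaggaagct

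The second group of falls was in the extracellular matrix. Of 45 measured matrix glycoproteins and proteoglycans, 5 fell and 1 rose. Blocked arrays lay below the open ones without overlap in 16 (35.6%, against 10.6% of all clusters) and above in 7 (15.6%, against 9.43%). The median difference was -0.22. Tgfbi, a secreted adhesion protein named for its induction by TGFb, read 12.14, 12.84 and 12.83 in the open arm and 10.43, 10.61 and 10.67 in the blocked arm. The arms stood apart in both sets, and Tgfbi fell by 2.03 ± 0.20 (4.09-fold, adjusted p = 0.00856 in limma). Fbln1, a fibulin of elastic fibres and basement membranes, read 13.50, 13.17 and 12.75 in the open arm and 11.81, 11.68 and 10.40 in the blocked arm and fell by 1.84 ± 0.20. All blocked arrays were lower than all open arrays for both genes.

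Prg4, the lubricating proteoglycan of joints and tendon sheaths, differed more between sets than between arms. It read 10.23, 11.40 and 15.68 in the open arm and 8.80, 9.22 and 14.06 in the blocked arm. Within each set the blocked arrays were lower, and Prg4 fell by 1.74 ± 0.27. Vcan, the large hyaluronan-binding proteoglycan of provisional matrix, read 11.49, 12.02 and 12.64 in the open arm and 10.25, 10.46 and 10.96 in the blocked arm and fell by 1.49 ± 0.18. Podn, a small leucine-rich proteoglycan, fell by 0.95 ± 0.16. Lama1, a laminin chain of embryonic basement membranes, fell by 0.97 ± 0.16, with 1 blocked array at background.

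Igfbp7, a secreted matrix protein related to the IGF-binding proteins, was the matrix glycoprotein that rose (1.07 ± 0.18). Among the collagens, 1 of 28 passed. Col10a1, the collagen of hypertrophic cartilage, read 7.28, 6.88 and 8.44 in the open arm and 10.82, 9.21 and 11.11 in the blocked arm and rose by 2.85 ± 0.34 (7.19-fold). It rose while other cartilage and bone markers did not: Sox9 stood at -1.11 ± 0.21, Alpl at -0.79 ± 0.43, and Col2a1 and Acan lay at background in all 6 arrays. Fibrillar Col3a1 (-0.91 ± 0.17) and Col1a1 (-0.45 ± 0.19) were lower in every pair but missed the threshold.

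Enzymes that act on matrix passed in both directions. Mmp3, the metalloprotease stromelysin-1, read 10.78, 10.49 and 12.20 in the open arm and 8.96, 8.76 and 10.85 in the blocked arm. Set 2 was the higher set, and within each set the blocked arrays were lower, so that Mmp3 fell by 1.63 ± 0.17 (3.1-fold). P4ha2, a subunit of the hydroxylase that prepares collagen for folding, fell by 1.10 ± 0.15. Htra1, a secreted serine protease, rose by 1.12 ± 0.16. The list of 32 proteases and inhibitors had these 2 proteases past the threshold and a median of -0.05. Without overlap, 8 members were below (25%) and 3 above (9.38%), against 10.6% and 9.43% of all clusters.

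Other genes of connective tissue fell as well. Tnmd, tenomodulin, a marker of tendon cells, read 10.17, 9.79 and 7.97 in the open arm and 8.60, 8.65 and 6.85 in the blocked arm. It was lower in set 2 in both arms, the arms did not overlap within a set, and it fell by 1.28 ± 0.16. Spon2, a secreted matrix protein of the spondin family, read 6.38, 6.56 and 5.33 in the open arm and 5.15, 4.74 and 4.62 in the blocked arm. All blocked arrays and the GHMT array of set 2 lay at background, so its fall is given as at least 1.12-fold (adjusted p = 0.0433 in limma). Medag, a gene linked to fat cell differentiation, fell by 1.21 ± 0.20.

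Of 28 fibroblast identity genes, 0 passed, and the median was -0.24. Without overlap, 10 lay below (35.7%) and 1 above (3.57%), against 10.6% and 9.43% of all clusters. Dpt, dermatopontin, a small matrix protein of dermis, stood at -1.76 ± 0.38, Cd34, a surface marker of connective tissue fibroblasts, at -0.94 ± 0.17, and Twist1, a mesenchymal transcription factor, at -0.84 ± 0.18. Of the 11 fibroblast markers, 0 passed, 6 lay below without overlap (54.5%, against 10.6% of all clusters) and 0 above. Their median difference was -0.47, and their mean level was 12.78 to 13.05 in the blocked and 13.31 to 13.46 in the open arm. Their summed level, in which the brightest genes weigh most, was 19.39 to 19.47 and 19.33 to 19.85, on the log2 scale. The part of these marker levels in the falls of matrix genes was not tested.

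Receptors and ligands of inflammation and of growth control formed the third group. Il1r1, the signalling receptor for interleukin-1, read 11.51, 12.26 and 12.81 in the open arm and 10.22, 10.35 and 11.55 in the blocked arm. The open array with added PGE2 was the higher open array of set 1, the arms did not overlap within a set, and Il1r1 fell by 1.49 ± 0.21 (2.8-fold, adjusted p = 0.022 in limma). Tnfaip6, a hyaluronan-binding protein induced by interleukin-1, passed in the same direction, but only 1 open array was above background and no fold is given. Of 43 genes of the interleukin-1, chemokine and NF-kB list these 2 passed, and the median was -0.13. Without overlap, 12 lay below (27.9%) and 1 above (2.33%), against 10.6% and 9.43% of all clusters. Ppbp (-2.09 ± 0.43) and Cxcl14 (-1.97 ± 0.39), both chemokines, had larger differences that missed the threshold. Of 33 interferon response genes 0 passed, with 2 below (6.06%) and 0 above without overlap, against the same 10.6% and 9.43%.

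Mcpt8, a protease of basophils, had the second largest fall. It read 6.19, 7.75 and 12.26 in the open arm and 4.70, 4.42 and 8.70 in the blocked arm. Both blocked arrays of set 1 lay at background, the GHMT array of set 2 was the highest by far, and the difference was -2.79 ± 0.37 (adjusted p = 0.0193 in limma). Of 14 mast cell and basophil markers, 1 or 2 were above background in an array, and the summed level was 8.48 to 9.47 in the blocked and 8.62 to 12.35 in the open arm. Mcpt8 is itself on that list: in GHMT of set 2 it read 12.26, beside a sum of 12.35. The sum is therefore no separate measure of such cells. The defining markers Kit, Fcer1a, Ms4a2, Cpa3 and Prss34 lay at background in all 6 arrays. Mcpt4, another protease of the list, stood at 1.07 ± 0.24 and did not pass.

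Rspo3 is a secreted R-spondin, a ligand that strengthens Wnt signalling. It read 12.35, 13.30 and 13.04 in the open arm and 11.27, 11.29 and 11.15 in the blocked arm. The highest value was again that of diclofenac plus PGE2, no array of 1 arm reached the range of the other, and Rspo3 fell by 1.66 ± 0.23 (3.16-fold). None of 34 Wnt targets and antagonists passed, although Sfrp1, a secreted Wnt antagonist, stood at -1.36 ± 0.33 and Fzd1, a Wnt receptor, at -0.83 ± 0.15. In the list, 6 members lay below without overlap (17.6%) and 5 above (14.7%), against 10.6% and 9.43% of all clusters.

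The insulin-like growth factor (IGF) axis moved in both directions, with 2 of 20 members higher and 1 lower. Igfbp4, a secreted inhibitor of IGF action, read 12.64, 12.88 and 12.34 in the open arm and 11.38, 11.33 and 10.44 in the blocked arm and fell by 1.57 ± 0.17. Igfbp2, another IGF-binding protein, read 9.31, 8.39 and 9.20 in the open arm and 10.30, 10.59 and 11.63 in the blocked arm and rose by 1.87 ± 0.26. For both genes the arms did not overlap even across sets. Igfbp3 stood at -0.94 ± 0.23 and Irs1, an adaptor of the insulin and IGF-1 receptors, at 0.80 ± 0.22. The median of the list was 0.03.

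Among ligands and receptors that rose, several are known from vessels and heart. Flt1, a receptor for vascular endothelial growth factor, read 8.64, 8.01 and 11.01 in the open arm and 9.65, 10.16 and 12.57 in the blocked arm and rose by 1.57 ± 0.21. Set 2 was higher in both arms, and within each set the blocked arrays were higher. Of 12 endothelial markers 2 or 3 were above background, with Pecam1, Cdh5, Kdr, Tek and Tie1 at background in all 6 arrays, and the summed level was 11.58 to 13.17 in the blocked and 10.97 to 12.03 in the open arm. Flt1 is on that list.

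Ramp1, the partner that turns the calcitonin receptor-like receptor into a receptor for calcitonin gene-related peptide, read 6.89, 6.18 and 6.38 in the open arm and 7.84, 8.13 and 9.42 in the blocked arm. The arms stood apart within each set and Ramp1 rose by 1.98 ± 0.31 (3.94-fold). Agt encodes angiotensinogen, the precursor of angiotensin II. It read 7.47, 7.12 and 8.36 in the open arm and 9.65, 9.18 and 9.14 in the blocked arm, and it rose by 1.67 ± 0.27, with set 1 differing by 2.12 and set 2 by 0.78. S1pr3, a receptor for sphingosine 1-phosphate, rose by 1.23 ± 0.21.

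Hbegf, a membrane-anchored ligand of the EGF receptor, read 7.72, 7.89 and 9.29 in the open arm and 9.21, 9.16 and 10.57 in the blocked arm. It rose by 1.35 ± 0.15 with an adjusted p of 0.00996 in limma, and the pairs agreed closely. Fgf9, a fibroblast growth factor, rose by 1.05 ± 0.16. Of 43 growth factor ligands and receptors, Flt1 and Hbegf passed, and none fell. Lower without overlap were 10 (23.3%), among them Fgfr3 (-0.86), Vegfd (-0.72) and Fgf7 (-0.70), and 5 were higher (11.6%). Over all clusters, 10.6% were lower and 9.43% higher.

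Cspg4, the NG2 proteoglycan of pericytes and immature mural cells, read 7.40, 6.69 and 9.36 in the open arm and 8.31, 8.83 and 10.90 in the blocked arm. Blocked arrays were above open ones in each set, and Cspg4 rose by 1.53 ± 0.22. Of 10 pericyte markers 5 or 6 were above background in an array, Rgs5, Higd1b and Notch3 were at background throughout, and the summed level was 13.72 to 13.83 in the blocked and 13.35 to 13.84 in the open arm. Cspg4 is on that list. Pdgfrb, the platelet-derived growth factor receptor of mural cells and fibroblasts, stood at 0.37 ± 0.28. The part of such cells in this rise was not tested.

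**Figure D2:**
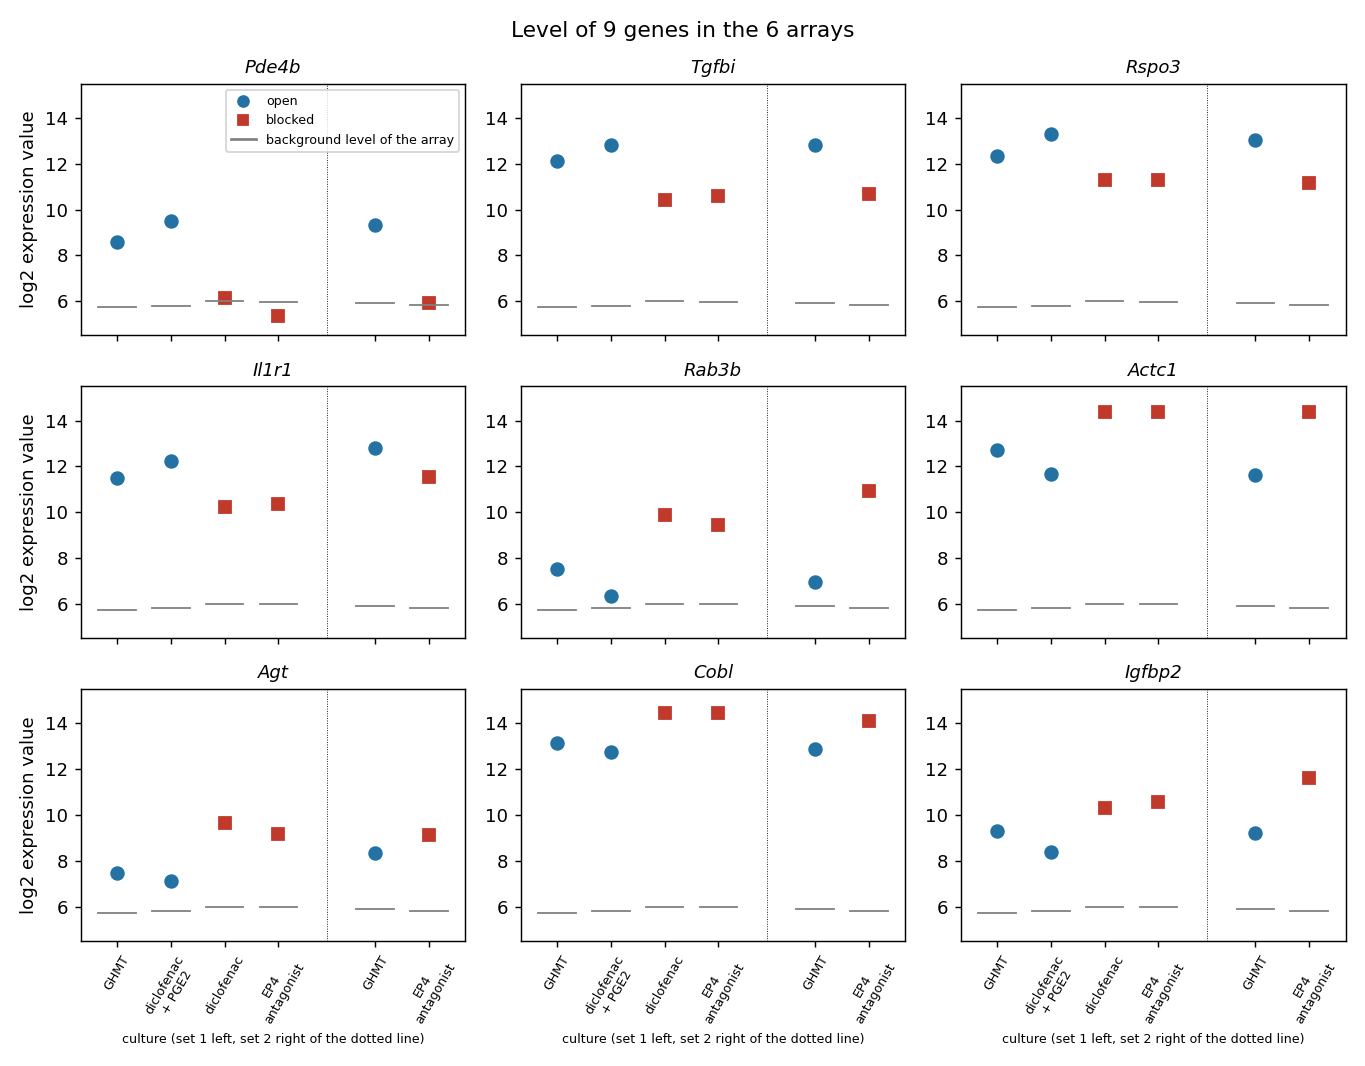
Log2 expression values (y axis) of 9 genes in the 6 arrays (x axis), with open cultures as circles, blocked cultures as squares and each array's background level as a grey line. Pde4b, Tgfbi, Rspo3 and Il1r1 are lower and Rab3b, Actc1, Agt, Cobl and Igfbp2 higher in the blocked arrays of each set.

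Genes of surface adhesion and transport were among the falls. Emb, embigin, a surface glycoprotein that escorts monocarboxylate transporters to the membrane, read 8.87, 10.29 and 7.50 in the open arm and 7.42, 7.25 and 5.95 in the blocked arm. It was highest with added PGE2 and fell by 2.01 ± 0.32 (4.04-fold). Slc6a17, a transporter that loads neutral amino acids into synaptic vesicles, read 10.06, 11.21 and 12.47 in the open arm and 8.87, 8.99 and 10.84 in the blocked arm and fell by 1.68 ± 0.26. Nectin2, a cell adhesion molecule, fell by 0.92 ± 0.15. Sema5a, a semaphorin of axon guidance, fell by 0.99 ± 0.15, and Cdon, a co-receptor for Hedgehog ligands that also promotes muscle differentiation, fell by 0.99 ± 0.15.

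Ecrg4, the precursor of a secreted peptide linked to growth arrest, read 8.47, 9.02 and 8.68 in the open arm and 6.85, 6.99 and 7.87 in the blocked arm and fell by 1.49 ± 0.23. Aff2, a nuclear protein of the AFF family of elongation factors, read 7.10, 7.39 and 6.63 in the open arm and 5.64, 6.03 and 5.50 in the blocked arm. All open arrays were above background and 1 blocked array was, and Aff2 fell by 1.32 ± 0.17. Lyst, a regulator of lysosome traffic, fell by 1.11 ± 0.18, and Hsph1, a large heat shock protein, fell by 1.01 ± 0.17.

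Rab3b, a small GTPase of secretory vesicles, showed the largest rise. It read 7.50, 6.33 and 6.96 in the open arm and 9.90, 9.46 and 10.91 in the blocked arm, every blocked array was higher than every open array, and Rab3b rose by 3.16 ± 0.33 (8.94-fold, adjusted p = 0.00982 in limma). Of 38 neuronal and vesicle genes, Rab3b rose and Slc6a17 fell. Stmn2, a microtubule-destabilising protein of neurons, stood at 2.32 ± 0.44, and Chl1, a neural adhesion molecule, at -2.07 ± 0.36, neither past the threshold. The median of the list was -0.03.

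Contractile genes were the widest group of rises: of 31 sarcomere genes, 10 rose and 0 fell, and the median was 0.80. Without overlap, 24 were higher (77.4%) and 0 lower, against 9.43% and 10.6% of all clusters. Myh6, the alpha-myosin heavy chain, read 6.89, 5.99 and 4.19 in the open arm and 10.22, 8.57 and 7.25 in the blocked arm. It separated the arms within a set, GHMT of set 2 being at background, and rose by 2.99 ± 0.38. Actc1, cardiac alpha-actin, read 12.72, 11.67 and 11.64 in the open arm and 14.37, 14.36 and 14.39 in the blocked arm. The blocked arrays read nearly alike across both sets while the open ones varied, and Actc1 rose by 2.36 ± 0.26 (5.15-fold).

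Myl7, the atrial regulatory light chain, read 11.42, 10.48 and 9.60 in the open arm and 13.59, 13.30 and 11.11 in the blocked arm and rose by 2.17 ± 0.28. Set 1 was higher than set 2, so the blocked array of set 2 was below the GHMT array of set 1. Myl1, a light chain of fast skeletal fibres that is counted on the skeletal list, read 9.40, 8.82 and 8.33 in the open arm and 11.62, 11.24 and 10.36 in the blocked arm and rose by 2.22 ± 0.20 (adjusted p = 0.00726 in limma). The other genes of the sarcomere list past the threshold were Myl4 (rise of 1.34 ± 0.19), Myom1 (1.33 ± 0.21), Myom2 (1.27 ± 0.17), Mybpc3 (1.26 ± 0.18), Tnnc1 (1.20 ± 0.19), Smpx and Trim63, which with Myh6, Actc1 and Myl7 make the 10. Tnni1, the slow skeletal troponin I (1.42 ± 0.23), rose on the skeletal list, with GHMT of set 1 at background. Smyd1, a methyltransferase needed to assemble the sarcomere, read 7.60, 6.45 and 5.26 in the open arm and 9.43, 9.34 and 7.08 in the blocked arm and rose by 2.18 ± 0.27, with GHMT of set 2 at background. The summed level of the 12 cardiomyocyte markers was 18.29 to 18.34 in the blocked and 17.62 to 18.07 in the open arm.

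Muscle genes outside the sarcomere rose too. Popdc2, a membrane protein of the Popeye family that binds cAMP, read 9.19, 9.78 and 9.72 in the open arm and 11.33, 11.17 and 10.88 in the blocked arm. The arms did not overlap, also across sets, and Popdc2 rose by 1.56 ± 0.20. Rrad, a small GTPase that restrains L-type calcium channels, read 9.58, 9.18 and 10.37 in the open arm and 11.02, 11.01 and 12.41 in the blocked arm and rose by 1.77 ± 0.17 (adjusted p = 0.00856 in limma). Rcan2, an inhibitor of the calcium-dependent phosphatase calcineurin, rose by 1.19 ± 0.15. Sln, sarcolipin, an inhibitor of the calcium pump, lay at background in every open array and was at least 1.35-fold higher, with limma's adjusted p at 0.0376.

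Of 25 calcium handling genes, Rrad and Sln rose, and the median was 0.30. Without overlap, 11 were higher (44%) and 0 lower, against 9.43% and 10.6% of all clusters. Camk2a, a calcium-dependent kinase, stood at 1.13 ± 0.29, and Slc8a1, the sodium-calcium exchanger, at 1.13 ± 0.24. Neither passed. Of 25 membrane excitability genes, mostly ion channels, 0 passed, 4 were higher without overlap (16%) and 1 lower (4%), and the median was 0.02. The channel genes that passed are on neither list: Cacna1a, the pore of P/Q-type calcium channels, rose by 1.16 ± 0.20, with 1 open array at background, and Ano1, a calcium-activated chloride channel, by 1.43 ± 0.24.

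Genes of mitochondria and oxygen supply were represented by 4 rises. Cox6b2, the testis form of a cytochrome c oxidase subunit, read 6.58, 5.81 and 5.97 in the open arm and 8.00, 7.87 and 7.05 in the blocked arm, and it rose by 1.52 ± 0.23. Chchd10, a protein of the mitochondrial intermembrane space, rose by 1.49 ± 0.20, and Me3, a mitochondrial malic enzyme, rose by 0.96 ± 0.16. Mb, myoglobin, lay at background in all open arrays and was at least 1.67-fold higher (adjusted p = 0.022 in limma). Of 29 oxidative and muscle metabolism genes Mb was the 1 that passed, with a median of 0.04. Without overlap, 9 were higher (31.0%) and 3 lower (10.3%), against 9.43% and 10.6% of all clusters.

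Proteins of the cytoskeleton and its upkeep made up another set of rises. Cobl, an actin nucleator, rose by 1.41 ± 0.16, Coro6, a coronin, rose by 1.18 ± 0.17, and Mtus2, a microtubule-binding protein, rose by 1.30 ± 0.20. Hspb7, a small heat shock protein of heart and skeletal muscle, rose by 0.97 ± 0.15, Smpx, a small muscle protein, rose by 1.11 ± 0.19, and Trim63, a ubiquitin ligase of muscle wasting, rose by 1.03 ± 0.17. These genes did not overlap between the arms within a set. In the costamere and intercalated disc list, 0 of 28 passed. Without overlap, 13 were higher (46.4%, against 9.43% of all clusters), such as Itga7, a laminin-binding integrin (0.59), and Gja1, connexin 43 (0.55). Dsc2, a desmosomal cadherin, was lower (-1.08).

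Further rises had no common list. Ddah1, which degrades an inhibitor of nitric oxide synthase, rose by 1.34 ± 0.21. Mecom, a zinc finger transcription factor, rose by 1.01 ± 0.17, and Cd80, a costimulatory ligand of T cells, rose by 1.06 ± 0.15. Clic5 (1.26 ± 0.17), Map3k7cl (1.43 ± 0.18), Fam174b (1.43 ± 0.21), Mal (1.42 ± 0.24), Pear1 (1.04 ± 0.17) and Sh3bgr (1.04 ± 0.17) rose as well. Myocd, a coactivator of serum response factor, passed the test but lay at background in all 6 arrays, and Sel1l3 was above it in 1 blocked array, so no fold is given for either. Chit1, a chitinase, was at background in the open arm and at least 1.36-fold higher. With Myh6, Myl7 and the other sarcomere genes above, these account for the named genes that rose, and 3 further clusters past the threshold carry no symbol (2 higher, 1 lower).

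Several groups had few or no genes past the threshold but leaned to 1 side. Of 30 mitosis genes, 0 passed, 11 were lower without overlap (36.7%) and 1 higher (3.33%), and the median was -0.23. Examples are Bub1b, of the spindle checkpoint (-0.81 ± 0.19), and Top2a, topoisomerase II alpha (-0.78 ± 0.25). Of 31 DNA replication genes, 0 passed, 12 were lower (38.7%) and 0 higher, with Rrm2, of ribonucleotide reductase, at -0.58 ± 0.24. Of 27 p53 targets and cell cycle inhibitors, 0 passed, 12 were higher (44.4%) and 2 lower (7.41%), with Cdkn1a at 0.63 ± 0.15 and Cdkn1b, a different cell cycle inhibitor, at -0.77 ± 0.24. Of 28 hypoxia and glycolysis genes, P4ha2 fell, 12 were lower (42.9%) and 2 higher (7.14%), with Pdk1, a kinase that limits pyruvate entry into mitochondria, at -0.64 ± 0.18. The reference over all clusters was 9.43% higher and 10.6% lower.

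**Figure D3:**
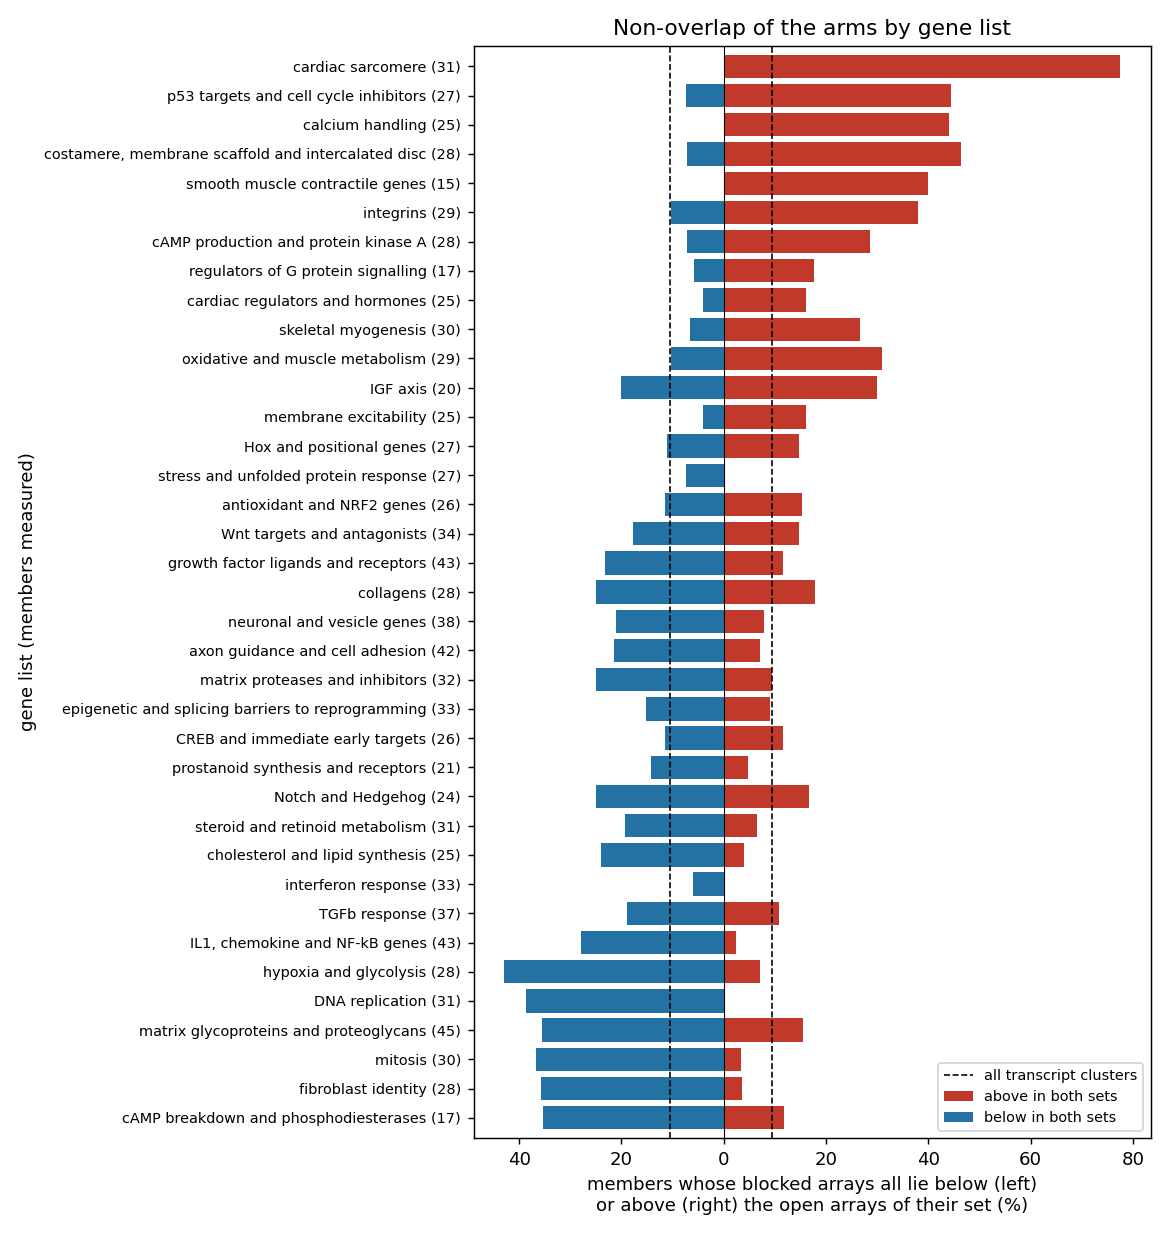
Share of each gene list's measured members (number in brackets) whose blocked arrays lie above (right, red) or below (left, blue) the open arrays within both TTF sets, in percent, ordered by the list's median difference. Dashed lines are the shares over all clusters, 9.43% and 10.6%. Among the pathway lists, the sarcomere list has the largest share above (77.4%) and the hypoxia and glycolysis list the largest below (42.9%). Phosphodiesterases stand at 35.3% below. The fibroblast marker list, not shown, has 54.5% below.

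Because the TTF sets share no array, genes chosen in set 1 could be read in set 2. In set 1, 45 clusters (0.203%) had both blocked arrays at least 1 log2 unit above both open arrays, and 21 (0.0946%) at least 1 unit below. The choice also required the mean of the higher arm in set 1 to lie above background. In set 2, where the pair is EP4 antagonist against GHMT, 42 of the 45 were again higher (93.3%, against 48.7% of all clusters), with a median of 0.82, and 19 were at least 1 unit higher (42.2%, against 1.29%). Of the 21, 20 were again lower (95.2%, against 50.1%), with a median of -1.55, and 15 at least 1 unit lower (71.4%, against 1.45%). Of the 10114 clusters above background in set 2, 2.00% were at least 1 unit higher and 2.14% at least 1 unit lower there. No array of set 2 took part in choosing the 45 and the 21, and their direction in set 2 was not tested.

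Some genes kept their size in set 2 and others did not. Pde4b differed by -3.32 in set 1 and -3.43 in set 2, and Fbln1 by -1.59 and -2.35. Cited1, a transcriptional coactivator, was chosen with 2.37 and stood at 1.25 in set 2. Dpt shrank from -2.43 to -0.43, Spon1, a spondin, from 2.39 to 0.53, and Myoz2, a Z-disc protein, from 1.56 to 0.08. Tuba4a, an alpha-tubulin (1.34 and -0.02), Plekha7, of adherens junctions (1.29 and -0.25), and 2 unnamed clusters changed sign. Except for Pde4b and Fbln1, the genes of this paragraph did not pass the threshold over all 6 arrays, and those other than Dpt, Tuba4a, Plekha7 and Pde4b were picked as examples after their values were seen.

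**Figure D4:**
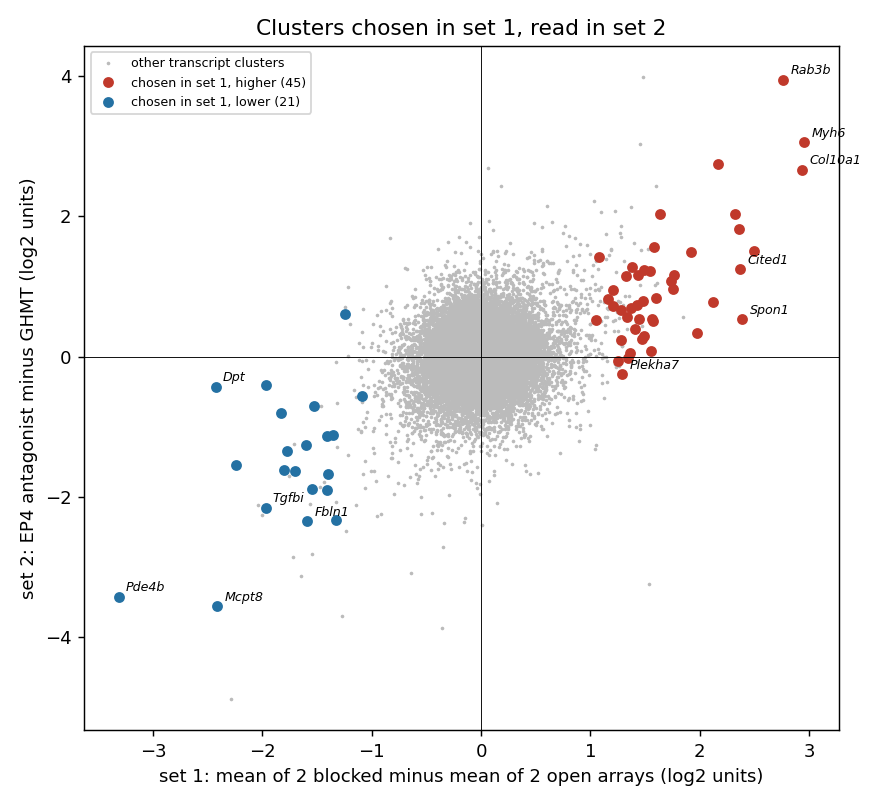
Blocked minus open in set 1 (x axis, 2 arrays against 2) and in set 2 (y axis, 1 array against 1), in log2 units, for all transcript clusters (grey), the 45 chosen as higher in set 1 (red) and the 21 chosen as lower (blue). Most coloured points keep their sign in set 2, and Plekha7 lies just below the zero line.

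An arm by set interaction was tested over the 6 arrays, and 0 clusters passed in limma (smallest adjusted p = 0.658, 1569 at an unadjusted p under 0.05, 7.07%). The design leaves few degrees of freedom for it, so a p that misses the threshold does not show that the sets responded alike. Among the 5 clusters with the smallest p was Il6, the interleukin-6 cytokine, which read 8.33, 8.58 and 9.27 in the open arm and 8.29, 8.33 and 6.96 in the blocked arm: the arms were close in set 1 and well apart in set 2. Acta1, skeletal alpha-actin, read 6.75, 6.67 and 9.96 in the open arm and 6.59, 6.43 and 11.66 in the blocked arm, with set 2 far higher than set 1. Its blocked arrays lay slightly below the open ones in set 1 and well above in set 2.

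The treatments inside each arm were set side by side in set 1, 1 array each and without a test. Diclofenac plus PGE2 was at least 2-fold from GHMT in 401 clusters (1.81%; 198 higher, 203 lower), so the open arrays of set 1 were not alike. The EP4 antagonist was at least 2-fold from diclofenac in 131 clusters (0.59%; 50 higher, 81 lower). These arrays also made the calls, so the following is a description. Among the 57 risen clusters, the array with added PGE2 was below GHMT in 46 (80.7%, against 49.9% of all clusters), with a median difference of -0.38. Among the 27 fallen clusters it was above GHMT in 20 (74.1%, against 48.7%), with a median of 0.29.

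In several genes the array with added PGE2 was the open array of set 1 farther from the blocked arm. Mcpt8 was 1.56 higher with diclofenac plus PGE2 than with GHMT, Emb 1.42, Prg4 1.17, Rspo3 0.95 and Pde4b 0.96. Rab3b differed by -1.17, Smyd1 by -1.15 and Actc1 by -1.05. In 11 of the 57 risen and 7 of the 27 fallen clusters GHMT alone was farther from the blocked arm. Examples are Tnni1 (0.85), Popdc2 (0.59), Tnmd (-0.38) and Fbln1 (-0.33). The EP4 antagonist and diclofenac arrays lay within 0.5 units of each other in 50 of the 57 risen and 26 of the 27 fallen clusters, against 20000 of all 22206. The widest gaps were those of Myh6 (-1.65) and Col10a1 (-1.61), both lower with the EP4 antagonist than with diclofenac, and, among the falls, Pde4b (-0.79).

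**Figure D5:**
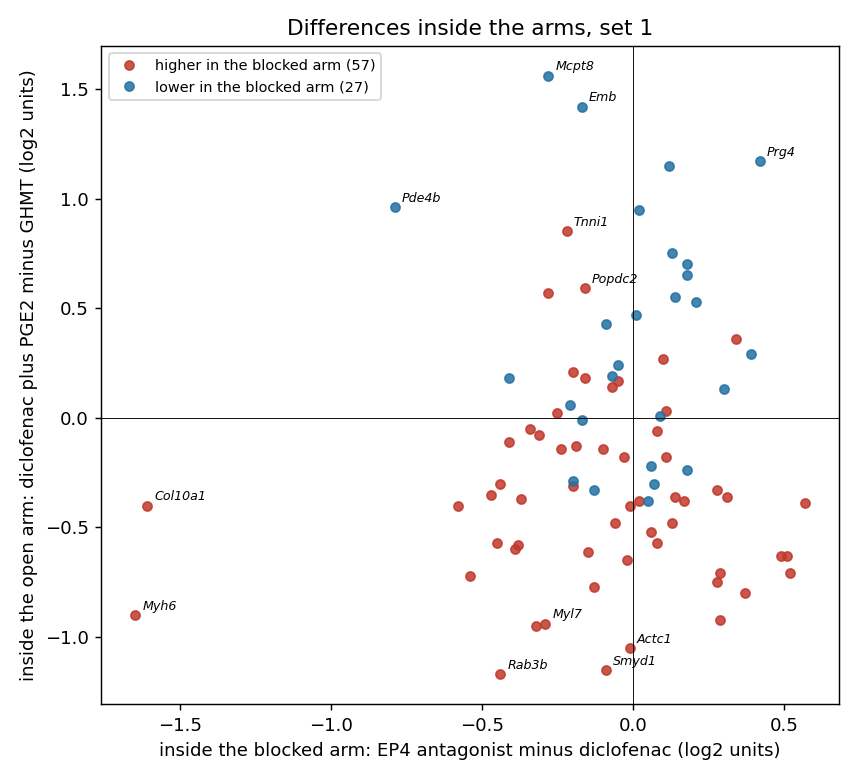
For the clusters past the threshold, EP4 antagonist minus diclofenac (x axis, inside the blocked arm) and diclofenac plus PGE2 minus GHMT (y axis, inside the open arm), in log2 units, 1 array each of set 1. The 57 risen clusters (red) lie mostly below zero on the y axis and the 27 fallen clusters (blue) mostly above, while Myh6 and Col10a1 lie farthest to the left.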

How the data were processed

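RNA from 6 cultures was hybridised to Clariom S Mouse arrays, 1 per culture. The values are log2 expression values deposited by the authors, normalized with SST-RMA in Affymetrix Expression Console 1.4 per the submitters' processing notes. The sources used here give neither the genome build nor whether both TTF sets were normalized together.

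Of 28846 rows in the table, the 22206 transcript clusters were used, 19572 of them with a gene symbol from the platform annotation. For a symbol on several clusters the one with the highest mean was used. Arms were compared with limma 3.58.1 in R 4.3.3 (lmFit and eBayes, two-sided, TTF set as fixed block, Benjamini-Hochberg adjustment over all clusters), checked on simulated data. The set number, which the sample titles give with the fibroblasts' name, was blocked. A first principal component with 64.7% of the variance told the sets apart, and GHMT and EP4 antagonist arrays deviated together by set (r = 0.724 across genes, which are not independent). Arrays of 1 set correlated at 0.992 to 0.995, arrays of different sets at 0.979 to 0.984. Array medians ran from 5.28 to 5.29 (set 1) and from 5.10 to 5.14 (set 2).

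Arms did not overlap, or lay above or below without overlap, where every blocked array was above (or below) every open array of its own set. For a gene whose lower arm was at background throughout, the fold is a bound ("at least") against the background level. The 37 pathway and 12 marker lists held 1318 entries, of which 1224 were matched, and some genes are on several lists. Members, lists and tests were chosen with earlier results of these data known, so no list is independent support. Array values are given for 16 rises and 16 falls, the largest among called genes above background, skipping predicted genes. Others past it are named with their difference, as are each list's top members by difference above background (at most 3), fixed genes of prostaglandin signalling and the viral factors, the 5 clusters with the smallest interaction p and up to 6 chosen in set 1. Further list members named are examples picked after their values were seen. Promoters are from RefSeq (GRCm38.p6).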

Additional observations from a re-analysis of the deposited data

How the results depend on the processing

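The count of 84 clusters past the threshold by limma rests on the TTF set as a block: without the replicate block it was 0, with 469 at an unadjusted p under 0.05. With the set as a random block (correlation 0.623) it was 83, of which 66 were shared, and Mcpt8, Flt1, Cspg4, Prg4, Tnmd and P4ha2 were among the 18 lost. Quantile normalization gave 80 (76 shared, Cacna1a, Dusp5, Igfbp7, Mecom, Podn, S1pr3, Smpx and Spon2 lost), centring arrays on their median 100, a trend and robust prior 143, and only clusters above background in at least 3 arrays 117 of 10024 tested. Leaving out 1 array gave 0 to 192. No named result reversed under any of these alternatives where it or its alternative passed, and the arm by set interaction gave 0 under each of its 3. Genes past the threshold could not reverse when 1 array was left out, as their arms did not overlap within a set. Nor could a change of block, the trend and robust prior or the background filter reverse any difference. The arms are balanced within each set, so these settings change the p-values and leave the differences as they are. Centring moves all genes of an array by the same amount. The lack of reversals under these settings is therefore no support. Counts inside the arms at 1.5-fold were 2415 for diclofenac plus PGE2 against GHMT and 1374 for the EP4 antagonist against diclofenac. List genes past the threshold numbered 47, and 44 to 47 under the alternatives. Choosing at 1.5-fold in set 1, 83.4% of those higher and 76.6% of those lower kept their direction in set 2. With 1 to 2 arrays a treatment and at most 45.7% of clusters above background in any of these arrays, small differences and low genes are not resolved.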

Other observations

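Other gene groups gave few calls by limma over all 6 arrays. In the smooth muscle list, Ramp1 was the 1 of 15 genes that rose, 6 were higher without overlap between the arms (40%, against 9.43% of all clusters) and 0 lower, and the median was 0.18. Examples that did not pass are Itga8, an integrin of contractile mesenchyme (0.85 ± 0.26), Myh11, the smooth muscle myosin heavy chain (0.45 ± 0.24), and Kcnmb1, a potassium channel subunit (0.34 ± 0.15). Of 29 integrins and other matrix receptors, Cspg4 rose and Emb fell. Without overlap, 11 were higher (37.9%) and 3 lower (10.3%), against 9.43% and 10.6% of all clusters. Itgbl1, an integrin-related secreted protein, stood at 1.47 ± 0.32. Of 17 regulators of G protein signalling, 0 passed, and Rgs4 (0.85 ± 0.20), Rgs16 (0.75 ± 0.24) and Rgs3 (0.74 ± 0.16), which shorten G protein signals, had the largest differences among those above background.

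In the TGFb response list of 37 genes, Tgfbi was the 1 that passed, and Fst, the activin antagonist follistatin (0.93 ± 0.22), Ccn2, connective tissue growth factor (0.81 ± 0.21), and Bmp4 (-0.77 ± 0.18) did not. Of 24 Notch and Hedgehog genes Cdon fell, and the Hedgehog antagonist Hhip stood at -1.18 ± 0.29 and the Notch ligand Jag1 at 0.71 ± 0.22. Rbm20 (1.43 ± 0.30) and Rbm24 (1.22 ± 0.23), splicing factors of heart muscle, did not pass. None passed among 27 stress and unfolded protein response genes, 27 Hox and positional genes, 25 cholesterol and lipid synthesis genes, 26 antioxidant genes and 31 steroid and retinoid genes, whose medians lay between -0.12 and 0.01. Without overlap, 24% of the cholesterol and lipid list lay below and 4% above, and 19.4% and 6.45% of the steroid and retinoid list. Over all clusters these shares were 10.6% and 9.43%. In the stress, Hox and antioxidant lists, 7.41% to 11.5% lay below and 0% to 15.4% above. Single large differences in these groups were Sod3, extracellular superoxide dismutase (-1.74 ± 0.64), and Hsd3b6, a steroid dehydrogenase (-3.15 ± 0.77).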
